A study of Mus musculus with 4 samples.

Results

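Cytosolic ribosomal protein genes were compared between T29 cells treated with a gamma-secretase inhibitor and T29 cells treated with solvent. T29 is a mouse line from a thymic lymphoma. One group of 2 arrays, called GSI here, held RNA of cells given MRK003, an inhibitor of gamma-secretase, at a dose the labels write as 5 mM for 36 h, of which the unit may be a slip and is taken as written. The other group of 2 arrays, called DMSO, held RNA of cells given the solvent. The treatment text is the same for every sample, so the groups come from the titles. No genotype is given. The labels do not tell whether the 2 arrays of a group came from different cultures, so the p-values rest on a spread between samples that may be technical. Genes were taken when the platform annotation gave a probe set exactly 1 symbol and that symbol had the form of a cytosolic ribosomal protein name. This gave 45 genes of 18193 on the array, 21 of the small subunit, 22 of the large subunit and 2 of the stalk. They carried 98 probe sets, and the brightest probe set stood for its gene. A further 28 symbols of this form appeared only on probe sets with several symbols and gave no gene here, among them Rplp1, Rpl5, Rpl3, Rpl10 and Rpl36a, often beside the symbol of a predicted gene or pseudogene.

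Ribosomal proteins surround and stabilise the ribosomal RNA of the small subunit, which reads the mRNA, and the large subunit, which joins amino acids. In growing cells their mRNAs are among the most abundant, and most begin with a cytosine and a run of pyrimidines at the cap, the terminal oligopyrimidine (TOP) tract, through which mTOR and Larp1 control their translation. Myc raises transcription of ribosomal protein and ribosome assembly genes, and in T cell leukaemia Myc is itself a target of Notch, which gamma-secretase activates. Arrays measure mRNA amount, so translational control of TOP mRNAs is outside these data. In bulk RNA, fewer cells of a type and less RNA per cell cannot be told apart, and values scaled to a common distribution do not show the total RNA of a cell.

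The start of transcription is shown for 10 of these genes because the TOP tract is the sequence feature by which the family is known. Each line gives 20 bases before and 20 bases after the annotated start, 5′ to 3′, from RefSeq (GRCm38.p6). Capitals mark a cytosine followed by at least 5 bases that are C or T, where it begins within 10 bases of the annotated start.
Rps25 (chr9:44407694-44407733, + strand): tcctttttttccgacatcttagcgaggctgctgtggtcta
Rpl12 (chr2:32961692-32961731, + strand): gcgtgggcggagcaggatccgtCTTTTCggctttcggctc
Rps6 (chr4:86857348-86857387, - strand): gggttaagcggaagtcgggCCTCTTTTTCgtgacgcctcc
Rpl37 (chr15:5116593-5116632, + strand): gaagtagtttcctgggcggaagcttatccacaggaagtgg
Rpl13a (chr7:45128726-45128765, - strand): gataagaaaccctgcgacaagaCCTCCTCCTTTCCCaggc
Rps2 (chr17:24720043-24720082, + strand): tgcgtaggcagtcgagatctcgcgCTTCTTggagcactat
Rplp0 (chr5:115559447-115559486, + strand): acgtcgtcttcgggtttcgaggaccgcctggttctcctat
Rplp2 (chr7:141447631-141447670, + strand): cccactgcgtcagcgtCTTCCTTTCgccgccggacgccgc
Rps9 (chr7:3704021-3704060, + strand): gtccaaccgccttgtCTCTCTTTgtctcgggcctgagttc
Rps27 (chr3:90213629-90213668, - strand): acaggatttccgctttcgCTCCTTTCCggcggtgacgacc

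Of the 45 genes, 39 had a start in the RefSeq table. Such a run near the start was present in 23 of the 39 (59.0%), against 21.0% of 26986 other genes. These others are all other symbols of the RefSeq table, measured here or not, and ribosomal protein symbols outside the 45 were not taken out. Exactly at the annotated start it was present in 17.9% of the ribosomal protein genes, against 2.02% of the others. Rps25, Rpl37 and Rplp0 had no run that begins within 10 bases of the annotated start, which says only that it is not there. In Rps25 a run begins farther before the start, in the bases shown, and is not marked. An annotated start can lie some bases from the one used in these cells. In the 300 bases around the start, searched on both strands, CCGGAAG, the core bound by Ets factors such as GABP, was present in 48.7% of the ribosomal protein genes, against 9.87% of the others. AAGATGGC, a YY1 motif, was found in 7.69%, against 3.18%. CACGTG, the E-box bound by Myc, was found in 10.3%, against 8.09%, and TGGGAA, the core of the motif of the Notch partner Rbpj, in 25.6%, against 28.3%. These matches describe letters in a window and are not sites of binding. The genes with a TOP-like run and those without had nearly the same median log2 difference between GSI and DMSO, 0.039 and 0.036. Most genes of both kinds stood at a mean log2 level of 13 or more. Over all genes at that level the standard deviation of the difference was 0.0697. These medians therefore had little room to differ and do not tell whether the run matters.

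The arrays were alike over all probe sets, with a correlation of 0.9970 between the GSI arrays, 0.9959 between the DMSO arrays and 0.9915 to 0.9940 between groups. Of 14 T lineage markers 12 were measured, and all 12 lay above the median of the arrays, at mean log2 levels of 7.17 to 12.49. Markers of B, myeloid, erythroid and stromal or epithelial cells had list medians of 3.70 to 4.77, with 1 of 5, 2 of 6, 1 of 3 and 2 of 6 measured members above the array median. The highest of these were Pdgfrb at 8.04, above the lowest T lineage marker, and Epor at 7.01, just below it. Among the T lineage markers 4 rose with GSI at an adjusted p under 0.05 in limma, namely Cd8a, Cd247, Cd4 and Thy1. Another 2, Ptcra and Cd3g, fell, against 2.56% of all genes higher and 1.56% lower. Of the stromal or epithelial markers Pdgfrb fell, and of the B, myeloid and erythroid markers none passed. Whether these bear on the ribosomal protein genes was not tested.

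Ribosomal protein genes filled the top of the measured range. Of the 44 genes with a mean log2 level of 13 or more, 30 were ribosomal protein genes, and of the 100 brightest genes 32 were. The brightest of the genes with a probe set of 1 symbol was Rpl37a, which encodes a zinc-binding protein of the large subunit. It stood at 13.71 and 13.69 on the GSI arrays and at 13.69 and 13.68 on the DMSO arrays, while the highest value of any probe set was 13.94. Probe sets of several symbols that carry Rps6 and Rps16 had higher mean levels, up to 13.81 and 13.73. Rps29, a zinc-binding protein of the small subunit head, ranked at place 4, the stalk genes Rplp0 and Rplp2 at places 5 and 6, and Rps2 at place 8. Fluorescence has a ceiling, so a probe set this bright can understate a difference. Over all genes the standard deviation of the log2 difference was 0.373 at levels of 6 to 8, 0.335 at 8 to 10 and 0.285 at 10 to 12. It was 0.202 at 12 to 13 and 0.0697 at 13 or more, where 30 of the 44 genes are these ribosomal protein genes. Dim genes also had a lower value, 0.156 under 4 and 0.260 at 4 to 6. Whether a ceiling plays a part was not tested.

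**Figure D1:**
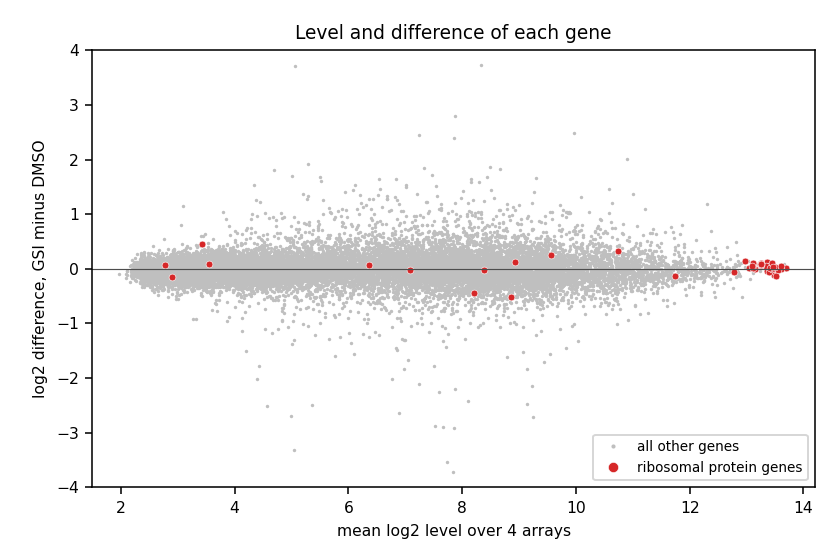
Mean log2 level over the 4 arrays (x axis) against the log2 difference of GSI minus DMSO (y axis), with 1 point per gene and the 45 ribosomal protein genes in red. Of the red points 30 lie at a level of 13 or more, where all genes have differences close to 0.

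None of the 45 genes passed the test between GSI and DMSO. With limma and Benjamini-Hochberg adjustment over all genes, 0 were higher and 0 lower at an adjusted p under 0.05, against a background of 2.56% of all genes higher and 1.56% lower. Before adjustment, 3 genes with higher and 2 with lower means had a limma p under 0.05, against 10.8% of all genes higher and 10.7% lower. Other settings of the fit called 0 to 4 of the 45, and the setting with 4 (8.89%) called 10.7% of all genes. The lowest adjusted p was 0.0586. The median log2 difference was 0.039 over the 45 genes, against -0.012 over all genes, and 31 had a higher and 14 a lower mean with GSI. This median was 0.015 without DMSO replicate 2 and 0.016 without GSI replicate 1. The per-array median of the 45 genes was 13.30 and 13.25 on the GSI arrays and 13.18 and 13.20 on the DMSO arrays. On this log2 scale both GSI medians lie above both DMSO medians, by little.

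The arrays of the groups did not overlap for 23 genes with higher GSI values and for 10 with lower ones. Over all genes this held for 23.7% in the higher and 27.7% in the lower direction. Against all genes, the lower share was near the background and the higher share above it. The share varied with level, and over both directions it was 73.3% of the 45 and 51.4% of all genes. Of other genes it was 36.5% under a level of 6, 67.5% at 6 to 12 and 70.7% at 12 to 13. Among the 14 other genes at a level of 13 or more the groups were apart for 5 in the higher and 2 in the lower direction. Non-overlap here came with small distances: among the 30 genes at a level of 13 or more the median absolute difference was 0.047 on the log2 scale. The median absolute distance at that level was 0.026 between the GSI arrays and 0.033 between the DMSO arrays. Of those 14 other bright genes, among them Actb, Eef1a1 and Pabpc1, 0 passed limma, against 2.56% of all genes higher and 1.56% lower. The 14 had a median difference of 0.003 and a median absolute difference of 0.039. They include genes of other ribosome proteins outside the naming rule and of other TOP mRNAs. They are thus not a background apart from the family.

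The intervals bound how far these probe sets could have moved. For 42 of the 45 genes the 95% interval of the log2 difference lay inside a change of 1.5-fold either way, and for 32 inside 1.25-fold. All 30 genes at a level of 13 or more lay inside 1.5-fold. No gene's interval lay inside 1.1-fold, so differences of that size were not resolved with 2 arrays a group. The intervals apply to the deposited values and do not allow for a ceiling on bright probe sets.

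**Figure D2:**
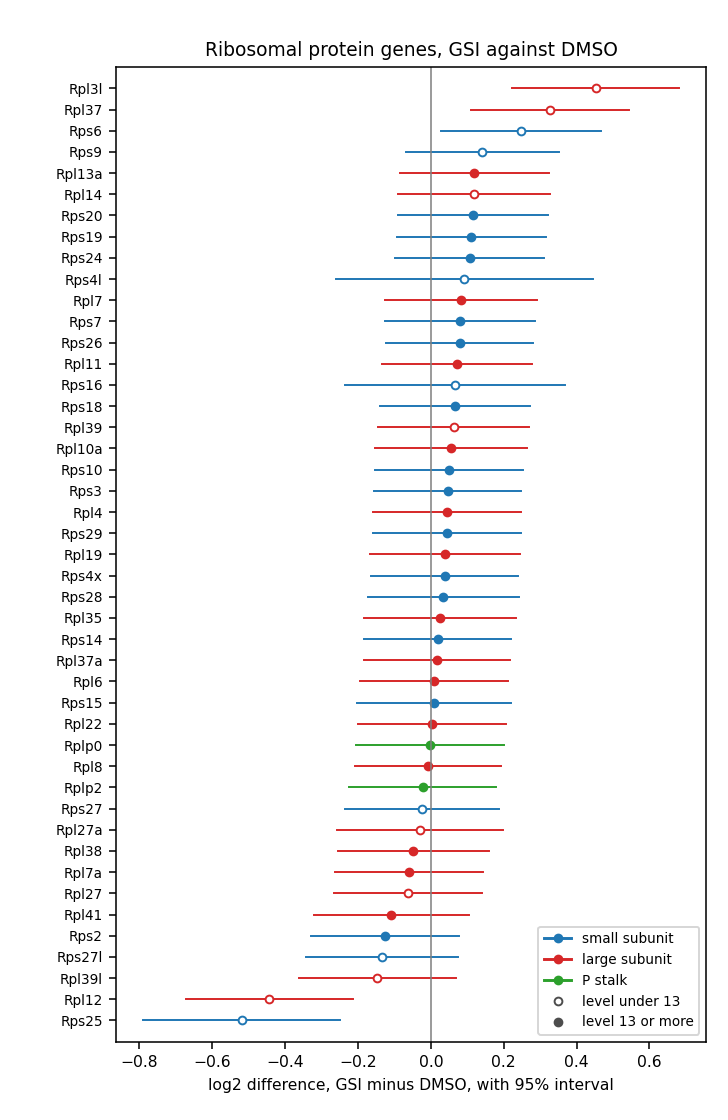
Log2 difference of GSI minus DMSO (x axis) for each of the 45 ribosomal protein genes (rows), with bars for the 95% interval of the limma fit, coloured by subunit. Filled points are genes at a mean level of 13 or more and lie close to 0, while the outermost points, Rps25 and Rpl12 below 0 and Rpl3l, Rpl37 and Rps6 above 0, are open.

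The small subunit genes had a median log2 difference of 0.050, with 17 higher and 4 lower means of 21. Rps25, which some viral and cellular mRNAs need for internal initiation, had the lowest difference of all 45. Its log2 values were 8.60 and 8.61 on the GSI arrays and 9.25 and 9.002 on the DMSO arrays. Both GSI values lie below both DMSO values, and the DMSO arrays are farther apart than the GSI arrays. The difference was -0.52 ± 0.11 (SE, n = 2 each), and the gene did not pass in limma (adjusted p = 0.0626).

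Rps6, the substrate of the S6 kinases that respond to mTOR, had log2 values of 9.63 and 9.74 on the GSI arrays and 9.41 and 9.46 on the DMSO arrays. The groups do not overlap, and the difference was 0.25 ± 0.089 (SE, n = 2 each; limma, adjusted p = 0.189). Its other probe set, at a level of 4.10, differed by -0.15, and the mean of both by 0.046. Rps9, near the channel where mRNA enters, had 13.06 and 13.02 with GSI and 12.86 and 12.94 with DMSO, a difference of 0.14 (limma, adjusted p = 0.406). Rps19, which is mutated in Diamond-Blackfan anaemia in humans, had 13.19 and 13.16 with GSI and 13.08 and 13.04 with DMSO. Its difference of 0.11 did not pass (limma, adjusted p = 0.511), although the groups do not overlap. Rps20, of the small subunit head, and Rps24, another Diamond-Blackfan gene in humans, had differences of 0.12 and 0.11 and did not pass. Rps2 was the bright small subunit gene with the lowest difference, with 13.45 and 13.44 on the GSI arrays and 13.60 and 13.55 on the DMSO arrays. Its difference of -0.13 did not pass (limma, adjusted p = 0.444). Rps4x and Rps29 had differences of 0.038 and 0.044.

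Over the 22 large subunit genes the median log2 difference was 0.021, with 14 higher and 8 lower means. Rpl12, at the base of the stalk that recruits elongation factors, had log2 values of 7.94 and 8.04 on the GSI arrays and 8.38 and 8.49 on the DMSO arrays. The arrays were 0.099 apart within GSI and 0.116 within DMSO, against medians of 0.034 and 0.042 over the 45 genes. The groups lie apart. The difference was -0.44 ± 0.093 (SE, n = 2 each; limma, adjusted p = 0.0616). Rpl37, a zinc-binding protein, had 10.91 on both GSI arrays and 10.53 and 10.64 on the DMSO arrays. Its difference of 0.33 ± 0.088 (SE, n = 2 each) did not pass (limma, adjusted p = 0.108).

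Rpl13a, known in human myeloid cells for restraining translation after interferon gamma, had 13.43 and 13.40 with GSI and 13.27 and 13.32 with DMSO, a difference of 0.12 (limma, adjusted p = 0.478). Rpl14 had 8.98 and 9.01 with GSI and 8.84 and 8.91 with DMSO, also a difference of 0.12 (limma, adjusted p = 0.488). Both genes have both GSI values above both DMSO values, and neither passed. Rpl11, which binds Mdm2 together with Rpl5 and a ribosomal RNA when assembly stalls, had 13.30 and 13.25 with GSI and 13.18 and 13.23 with DMSO, a difference of 0.071. Rpl7 differed by 0.082. Rpl41, among the shortest of all proteins, had 13.44 and 13.42 with GSI and 13.50 and 13.59 with DMSO. It was one of the lower genes of the large subunit, at -0.11 (limma, adjusted p = 0.536). Its dimmest probe set, at a level of 6.57, had 6.32 and 6.27 with GSI and 6.74 and 6.93 with DMSO. That probe set differed by -0.54, and when it stood for the gene, without _x_at and _s_at probe sets, the adjusted p in limma was 0.0502.

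Of the stalk, Rplp0, which anchors it, had 13.58 and 13.62 on the GSI arrays and 13.58 and 13.62 on the DMSO arrays. Its difference was -0.002, with a 95% interval of -0.21 to 0.20. Rplp2 had 13.55 on both GSI arrays and 13.59 and 13.56 on the DMSO arrays, a difference of -0.022. Both lie at the very top of the scale, where differences of all genes were smallest.

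**Figure D3:**
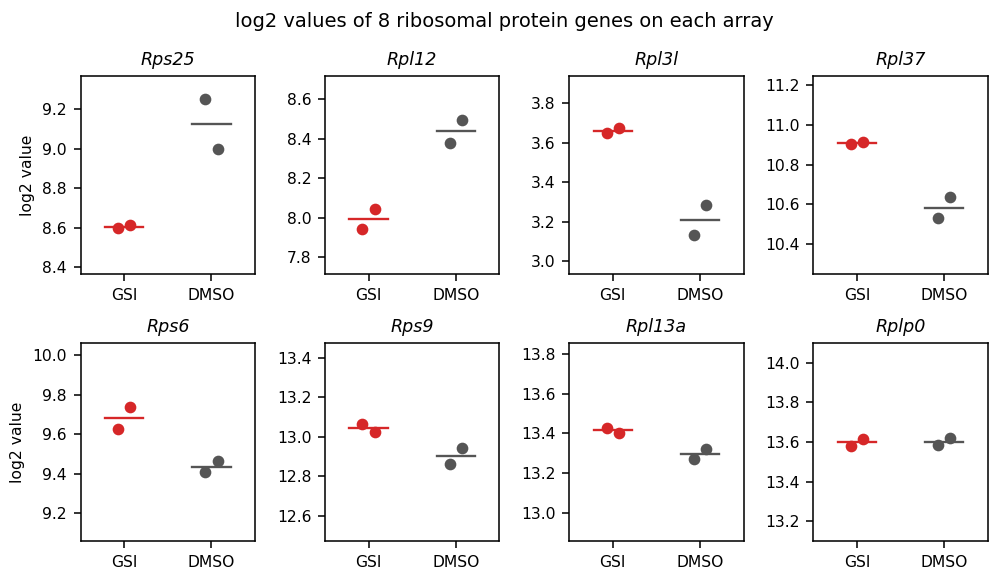
Log2 values (y axis) of 8 ribosomal protein genes on each of the 2 GSI and 2 DMSO arrays, with bars at the group means and the same span of 1 log2 unit in every panel. Rps25 and Rpl12 are lower and Rpl3l, Rpl37 and Rps6 higher on both GSI arrays, while the GSI and DMSO values of Rplp0 overlap.

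Among the 45 genes the paralogues Rpl3l, Rpl39l and Rps4l were dim. Rpl3l, the striated muscle paralogue of Rpl3, had the highest difference of all 45 genes, with 3.65 and 3.67 on the GSI arrays and 3.13 and 3.28 on the DMSO arrays. The groups do not overlap, but all values lie below the array median of 4.88. The difference was 0.45 ± 0.093 (SE, n = 2 each; limma, adjusted p = 0.0586). Rpl39l, the testis paralogue of Rpl39, had 2.88 and 2.79 with GSI and 2.96 and 3.004 with DMSO, a difference of -0.15, and Rps4l differed by 0.092. Rps27l, the paralogue of Rps27 that p53 induces, was brighter, with 11.64 and 11.70 on the GSI arrays and 11.78 and 11.84 on the DMSO arrays. Its difference was -0.13 (limma, adjusted p = 0.428), and its other probe sets differed by -0.11 and -0.22. Rps27 itself had 7.07 on both GSI arrays and 7.14 and 7.05 on the DMSO arrays, so the groups overlap, and it differed by -0.023.

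Rpl22, which developing T cells need in mice and which is deleted in some T cell leukaemias, had 13.17 and 13.14 with GSI and 13.14 and 13.16 with DMSO. The groups overlap and the difference was 0.003, with a 95% interval of -0.20 to 0.21. Its paralogue Rpl22l1, outside the naming rule, differed by 0.33 (limma, adjusted p = 0.233). Rpl7l1, a relative of Rpl7, differed by -0.38 (limma, adjusted p = 0.118).

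The 18 genes not described singly were Rpl4, Rpl6, Rpl7a, Rpl8, Rpl10a, Rpl19, Rpl27, Rpl27a, Rpl35, Rpl38, Rps3, Rps7, Rps10, Rps14, Rps15, Rps18, Rps26 and Rps28, core proteins of both subunits. Their log2 differences ran from -0.064 to 0.080, with 13 higher and 5 lower means, and 16 of them stood at a level of 13 or more. The lowest adjusted p among them was 0.648 in limma.

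The level of a gene's brightest usable probe set depended on the annotation. Under a level of 12 lay 13 genes. Of these, 9 had their symbol also on a probe set with several symbols, and for all 9 the brightest such probe set reached 13.03 to 13.81. The 9 were Rps25, Rpl12, Rps6, Rpl37, Rpl14, Rpl27a, Rps27, Rpl39 and Rps16. The other 4 were the paralogues Rps27l, Rpl3l, Rpl39l and Rps4l. Rps16, of the small subunit head, stood at 2.95 and 2.68 on the GSI arrays and 2.82 and 2.68 on the DMSO arrays. These are among the dimmest values of the family. Rpl39, at the end of the exit tunnel, stood at 6.42 and 6.36 with GSI and 6.34 and 6.31 with DMSO. Among the 9, log2 differences ran from -0.52 for Rps25 to 0.33 for Rpl37, with Rps27, Rpl27a, Rpl39 and Rps16 between -0.029 and 0.066. The brightest probe set with several symbols differed by 0.047 for Rps25, 0.055 for Rpl12, -0.032 for Rpl37 and -0.030 for Rps6. There the sign was the other one, as also for Rps27 (0.21) and Rpl27a (0.051). The sign was the same for Rpl14 (0.054), Rpl39 (0.065) and Rps16 (0.028). These bright probe sets also name other genes. Which transcripts the dimmer probe sets read was not tested.

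A probe set name also tells how specific its probes are. Of the 98 probe sets, 40 ended in _x_at, with probes that can bind other transcripts, 3 in _s_at, shared by several transcripts, 26 in _a_at, shared by forms of 1 gene, and 29 in plain _at. Ribosomal protein genes have many pseudogenes, so what the brightest probe sets bind is uncertain. Of the 30 genes at a level of 13 or more, 10 were read through _x_at, 16 through _a_at, 1 through _s_at and 3 through plain _at probe sets. Of the 15 dimmer genes 12 were read through plain _at probe sets.

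More than 1 probe set was measured for 22 genes, and the difference between GSI and DMSO was not the same at every level of the probe set. Tested on their own among all probe sets, 0 of the 98 passed limma in either direction, against 0.948% of all probe sets higher and 0.446% lower. The 50 probe sets at 13 or more had a median log2 difference of 0.055. The 17 between 10 and 13 had a median of 0.117, with 13 higher and 4 lower. The 31 under 10 had a median of -0.064, with 13 higher and 18 lower. All other probe sets had medians of 0.033, -0.032 and -0.012 at these levels, of which those at 13 or more include probe sets with several symbols that name a ribosomal protein.

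Within a gene the same order could be read. Where the brightest probe set stood at 12.5 or more, a dimmer one between 10 and 13 had the higher difference in 10 of 11 pairs, from 7 genes, by a median of 0.105. A dimmer one under 10 had the lower difference in 12 of 18 pairs, from 11 genes, by a median of -0.201. Pairs of 1 gene share the brightest probe set and are not independent. Rpl13a had 4 probe sets, at levels of 13.36, 13.18, 12.39 and 11.83, and their log2 differences were 0.12, 0.14, 0.22 and 0.42. On the last of these the values were 12.08 and 11.997 with GSI and 11.58 and 11.66 with DMSO, and the groups lie apart (limma over all probe sets, adjusted p = 0.116). The difference grew with each step down in level, and no step passed the test.

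Rps24 had probe sets at 13.44, 13.07, 12.75 and 12.67 with differences of 0.11, 0.23, 0.27 and 0.34, and a further pair at 7.62 and 5.36 with -0.23 and -0.24. Rpl22 differed by 0.003 and 0.010 at levels of 13.15 and 12.48 and by 0.53 at 9.45 (limma over all probe sets, adjusted p = 0.0968). Its dimmest probe set had 9.80 and 9.62 with GSI and 9.11 and 9.25 with DMSO, so the groups lie apart there and overlap on the brightest. Rps20 differed by 0.12 and 0.13 at 13.25 and 13.03 and by -0.35 and -0.43 at 5.70 and 5.64. Rps9 differed by 0.14 at 12.97, 0.27 at 8.04 and -0.35 at 6.87. For Rpl37a the differences were 0.016 at 13.69, 0.10 at 13.03 and -0.40 at 8.17. For Rps24, Rps20, Rps9 and Rpl37a the direction depends on the probe set, while for Rpl22 only the size does. Neither a ceiling on bright probe sets nor the part of the transcript a dim probe set binds was tested.

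**Figure D4:**
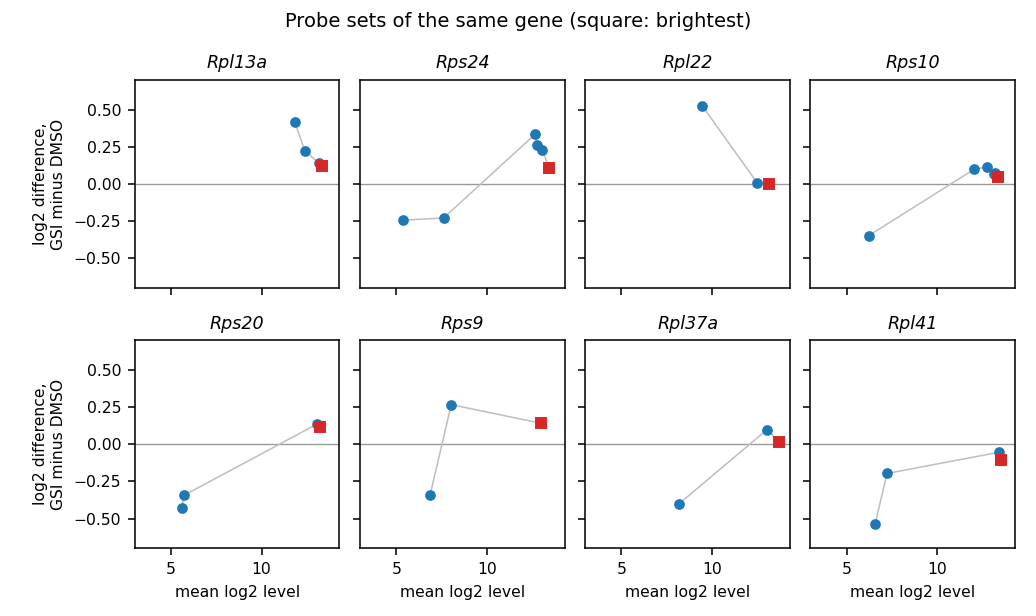
Mean log2 level (x axis) against the log2 difference of GSI minus DMSO (y axis) for each probe set of 8 ribosomal protein genes, joined by a line, with the brightest as a red square. From the brightest probe set the differences of Rpl13a grow down to a level of 11.83 and those of Rps24 down to 12.67. The dimmest probe sets of Rps24, Rps10, Rps20, Rps9, Rpl37a and Rpl41 lie below 0.

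Other genes of the ribosome and its assembly are set beside the 45. Of 10 listed ribosome proteins and paralogues outside the naming rule 5 were measured, and none passed, with a median log2 difference of 0.031. Of 17 measured elongation factors and other TOP mRNAs 0 passed limma, with a median of 0.057. The highest were Gas5, a host of small nucleolar RNAs, at 0.31 (limma, adjusted p = 0.146) and the initiation factor gene Eif3f at 0.31 (limma, adjusted p = 0.156).

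The assembly genes stood lower, and their calls are read against the 2.56% of all genes that rose and the 1.56% that fell. The lists were chosen with earlier results of these data known, so the counts describe them and do not test them. Of 17 measured chaperones of ribosomal proteins and factors of subunit maturation 16 had lower means with GSI and 1, Eif6, which keeps the subunits from joining too early, fell (-0.44; limma, adjusted p = 0.0499). The list's median was -0.27, and before adjustment 12 with lower and 0 with higher means had a limma p under 0.05. All 40 listed nucleolar genes had lower means, 16 (40.0%) fell and 0 rose, with a median of -0.54. Polr1b, of RNA polymerase I, differed by -0.84 (limma, adjusted p = 0.0295) and Nolc1 by -0.74 (limma, adjusted p = 0.0352). Of 76 mitochondrial ribosomal protein genes 62 had lower means and 1, Mrpl47, fell (-0.47, adjusted p = 0.0494 in limma), with a median of -0.20. Its share of 1.32% is near that of all genes, but 6.41% to 7.64% of genes at levels of 6 to 12 were called. Before adjustment 30 with lower and 1 with a higher mean had a limma p under 0.05, against 10.7% and 10.8% of all genes. Of 46 genes named as initiation factors 1 rose, the stress kinase gene Eif2ak3 (0.97, adjusted p = 0.0109 in limma). Of the same genes 1 fell, Eif2b3 (-0.67, adjusted p = 0.0403 in limma). The called share of 4.35% is also near the 4.12% of all genes, but under the share called at levels of 6 to 12. Before adjustment 13 with lower and 4 with higher means had a limma p under 0.05. The median of these genes was -0.14. Of 13 genes of RNA polymerase III and its factors 0 passed limma, with a median of -0.10, the lowest p values being those of Polr3b (-0.39) and Polr3e (-0.31). Of 12 genes that control TOP mRNAs 0 passed limma, with a median of -0.11. There Ddit4, which restrains mTOR, differed by 0.56 (limma, adjusted p = 0.0766) and Larp1, which binds the TOP tract, by -0.31 (limma, adjusted p = 0.106).

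These lists lay at lower levels than the ribosomal protein genes, with medians of 9.34 for chaperones and maturation, 9.54 for nucleolar genes and 9.87 for mitochondrial ribosomal proteins, against 13.24. The elongation and TOP list stood at 12.46. Differences between the lists were not tested, and the level at which each was read differs between them.

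**Figure D5:**
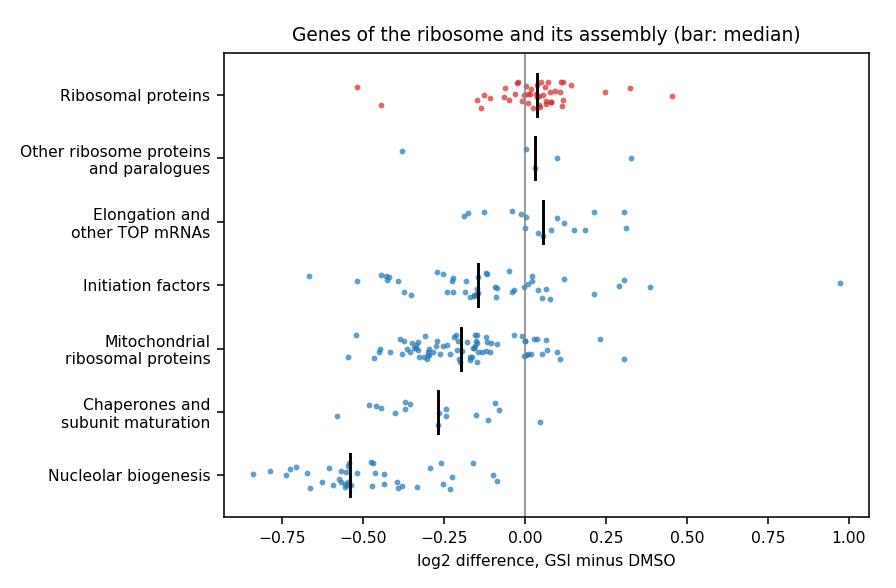
Log2 difference of GSI minus DMSO (x axis) for each gene of 7 lists (rows), with a black bar at the list's median. The ribosomal protein genes, the other ribosome proteins and the TOP list have medians just above 0, at 0.039, 0.031 and 0.057, and the nucleolar genes have a median of -0.54.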

How the data were processed

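RNA of 4 samples was measured on Affymetrix arrays. The authors deposited log2 values, 1 per probe set and array. The submitters' processing notes name RMA, which corrects background, normalizes between arrays and combines probes. Its version is not given in the sources used here. Such scaling removes shifts that all genes share. The table held 45101 probe sets, of which 64 controls were left out. Symbols came from GEO's platform annotation, updated by gene identifier to GRCm38.p6. The 932 probe sets with several symbols named no gene. The difference of GSI minus DMSO was tested over 18193 genes in R 4.3.3 by a two-sided moderated fit of limma 3.58.1 (lmFit, eBayes), with 5.80 total degrees of freedom and no filter on dim genes. Calls were made at an adjusted p under 0.05, and SE and 95% intervals are those of the moderated fit. For arrays, their number limits the precision.

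Members and lists were chosen with earlier results of these data known. Named genes were the 6 highest and 6 lowest differences, the 5 brightest and 5 dimmest, genes listed by role, and the 5 whose probe sets differed most, and for other lists up to 4 called genes or the 2 with the smallest p. The fit was tested on simulated data. Alternatives were other choices of probe set, dim genes left out, another prior, centred arrays, loess between arrays, a block for replicate number and each array left out. An added alternative, chosen after seeing the data, read the 10 members that had a probe set between levels 10 and 13 through it and kept the usual probe set for the rest.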

Additional observations from a re-analysis of the deposited data

Results flagged for a closer look

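Probe sets with several symbols were left out of the comparison of genes. Of 110 such probe sets with at least 1 ribosomal protein symbol, 1 (0.909%) was higher with GSI past the threshold among all probe sets, a share near the 0.948% of all probe sets. It had log2 values of 9.45 and 9.37 on the GSI arrays and 8.59 and 8.55 on the DMSO arrays, a difference of 0.84 (limma, adjusted p = 0.0211). The groups lie apart by far more than the arrays within a group. Its second symbol belongs to another kind of gene, so which gene it reads is unknown. Groups of 2 arrays were too small for a test of single outlying arrays.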

How the results depend on the processing

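With another setting, 0 to 4 ribosomal protein genes passed limma. There were 3 of 45 (6.67%, against 4.90% of all genes) when probe sets were averaged per gene (Rpl12, Rpl3l and Rps25). With dim genes left out there were 3 of 41 (7.32%, against 14.4%; Rpl12, Rpl37 and Rps25). With an intensity trend and robust prior there were 4 of 45 (8.89%, against 10.7%; these 3 and Rpl3l). Rpl3l alone (2.22%) passed with centred arrays, against 5.47% of all genes, and with cyclic loess, against 5.04%. Rps25 and Rpl12 were lower and Rpl37 and Rpl3l higher, with adjusted p values of 0.0118 to 0.0497 where they passed. None passed when every probe set was tested, without _x_at and _s_at probe sets, or when the 10 members with a probe set between 10 and 13 were read through it. Over all genes 1584 passed with dim genes left out and 1941 with the trend and robust prior, against 750 as reported. With each array left out 0 to 6 genes passed, 0 of them ribosomal protein genes, and the family's median log2 difference was 0.015 to 0.049. The 0 came without GSI replicate 1 or 2 and the 6 without DMSO replicate 1 or 2, where the spread came from the group that kept both arrays and was taken to hold for the lone array too.

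Of 27 named genes, 6 values changed sign in fits of all 4 arrays. These were Rpl37a (-0.096) and Rps20 (-0.13) as the mean of their probe sets, Rps20 (-0.35), Rps24 (-0.23) and Rps9 (-0.35) without _x_at and _s_at probe sets, which by construction reads a dimmer probe set, and Rplp0 (0.018) with cyclic loess. With an array left out the sign changed for Rpl22 (-0.013 to 0.019), Rplp0 (-0.021 to 0.016), Rps16 (-0.072 to 0.20), Rps27 (-0.069 to 0.022) and Rps4l (-0.089 to 0.27), none of which passed.

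The numbers of the replicates are shared between the groups, but nothing says that they pair the samples. The deviations of same-numbered arrays correlated at 0.085 over all genes and at 0.466 over the 45 ribosomal protein genes. With the replicate number as a block 217 genes passed and 0 ribosomal protein genes, and their median stayed at 0.039. Whether a ceiling acts on the bright genes was not tested, and probe-level values were not analysed here.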

Other observations

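The other 109 probe sets with several symbols that included a ribosomal protein symbol had a median log2 difference of 0.054, with 87 higher and 22 lower means with GSI, and ranged from -0.41 to 0.57. The 60 at a level of 13 or more had a median of 0.049 and the 23 between 10 and 13 a median of 0.090. The 26 under 10 had a median of 0.056 and a median absolute difference of 0.213. They are given as a group because the annotation does not say which of their genes each reads.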
